A study of Mus musculus with 32 samples.

Results

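Alanine tRNA genes carry 1 of 3 anticodons, AGC, CGC or TGC, and 31 of the 33 alanine loci among the 401 high-confidence mouse tRNA loci in the tables were examined here. They were chosen by name, all loci called tRNA-Ala except tRNA-Ala-TGC-3-1 and tRNA-Ala-TGC-4-1, and comprised 13 loci with the anticodon AGC, 9 with CGC and 9 with TGC. The assay for transposase-accessible chromatin with sequencing (ATAC-Seq) was used on nuclei from brain and liver, in which a transposase cuts open DNA and the reads at a locus measure how accessible its chromatin is. The mice were male C57BL/6N animals 10 weeks old, either wild type or homozygous for a CRISPR-Cas9 deletion in a phenylalanine tRNA gene. The Phe11 line lacks the gene tRNA-Phe-GAA-1-1, the Phe21 line tRNA-Phe-GAA-2-1 and the Phe31 line tRNA-Phe-GAA-3-1, in every tissue. The lines were made with the same guide RNA, the wild-type controls carry no deletion, and no alanine gene was targeted. There were 5 wild-type, 4 Phe11, 3 Phe21 and 3 Phe31 brain libraries, and 7 wild-type, 4 Phe11, 3 Phe21 and 3 labelled Phe31 liver libraries.

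Alanine is encoded by the codons GCU, GCC, GCA and GCG. The A that opens the AGC anticodon is deaminated to inosine in the mature tRNA, so that AGC tRNAs read codons ending in U, C or A, whereas CGC tRNAs read GCG and TGC tRNAs read mainly GCA. RNA polymerase III transcribes these genes from promoter boxes inside the tRNA sequence, and open chromatin is a usual feature of a tRNA gene in use. In the locus names the first number stands for a distinct mature tRNA (an isodecoder) and the last for the gene copy, so that tRNA-Ala-CGC-1-1 and tRNA-Ala-CGC-1-2 encode the same tRNA. Alanyl-tRNA synthetase, the enzyme that charges these tRNAs, recognises chiefly a G·U pair in the acceptor stem, and the anticodon plays little part in that recognition.

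Some libraries stood apart and bear on what follows. Reads over all 401 loci ran from 20315 to 35565 in the brain libraries and from 4719 to 23754 in the liver libraries. The deleted gene was low in Phe11 brain (mean normalised read count 36.7 against 108), Phe11 liver (3.18 against 22.0), Phe21 brain (0.612 against 8.72), Phe21 liver (0.201 against 2.94) and Phe31 brain (2.21 against 45.8). The liver libraries labelled Phe31 kept tRNA-Phe-GAA-3-1 (9.74 against 12.9) and had little tRNA-Phe-GAA-1-1 (0.751 against 7.54), so they went against their label. All 6 libraries of that comparison formed batch 3 and are named a, b and c here. The 3 wild-type livers of batch 3 differed from each of the other 4 by a chi-square per degree of freedom of 2.19 to 2.59, and from each other by 0.922 to 1.08. Wild-type livers 1 and 22 differed by less than the sampling noise (chi-square per degree of freedom 0.440) and were counted as 1 sample in every mean ± SD, which leaves 6 wild-type livers. The next lowest pairs, wild-type brains 3 and 18, wild-type livers 3 and 24 and Phe11 livers 6 and 20, stood at 0.741 to 0.765, also below sampling noise, and were kept as separate samples. tRNA-Arg-TCT-4-1, a tRNA gene used in the nervous system, held 67.0 to 92.6 of every 10000 reads in wild-type brain and 2.33 to 9.69 in wild-type liver. Promoters of the liver genes Alb, Apoa1, Serpina1a and Tat carried a peak in all 3 liver peak lists and in no brain list. Of the brain genes, Rbfox3 had a promoter peak in the brain lists alone, Syt1 in all 3 brain lists and 2 liver lists, and Gfap in none.

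Mature sequences of alanine tRNA genes were also compared. The alanine tRNA annotation named genes in another way than the read tables, so the sequences below, found in GRCm39 by similarity to 1 RefSeq alanine tRNA gene, are given by anticodon and not by locus. A match was kept only if it was 72 nt long, with G at base 3, T at base 69, an alanine anticodon and enough paired bases in its stems. The copies found share these features by selection. The search found 23 copies of 72 nt with 15 distinct sequences, 12 of the copies on the X chromosome and 11 elsewhere. Of these, 4 copies were AGC, although RefSeq lists 13 AGC genes, 8 of them 73 nt long. No copy was found on chromosome 4, where RefSeq places the 72 nt genes n-TAagc8 and n-TAcgc3. The AGC and CGC genes away from X are thus covered only in part, and the comparisons of X copies with others hold for the copies found. Away from X there were 3 distinct AGC, 2 distinct CGC and 3 distinct TGC sequences, and on X 3 distinct CGC and 4 distinct TGC sequences. Each line below is 1 sequence shared by several copies. They are shown because the copies on X and elsewhere differ in sequence, in peaks and in how much of their surroundings is duplicated. Capitals mark the guanine and the thymine (uracil in the tRNA) of the synthetase's recognition pair, bases 3 and 69 from the 5′ end, and the anticodon, bases 33 to 35.
AGC on other chromosomes: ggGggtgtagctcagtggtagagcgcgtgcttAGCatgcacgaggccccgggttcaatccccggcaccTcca
CGC on other chromosomes: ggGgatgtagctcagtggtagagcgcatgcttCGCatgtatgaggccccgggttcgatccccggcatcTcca
TGC on other chromosomes: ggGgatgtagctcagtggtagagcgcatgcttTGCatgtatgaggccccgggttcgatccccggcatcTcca
CGC on X: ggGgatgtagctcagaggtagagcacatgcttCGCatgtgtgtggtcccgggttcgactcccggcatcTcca
TGC on X: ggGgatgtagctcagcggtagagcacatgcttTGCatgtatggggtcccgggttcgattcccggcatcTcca

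The CGC and TGC sequences printed from other chromosomes differed by 1 base, C33T from CGC to TGC, which is the first base of the anticodon. The printed AGC sequence differed from the printed CGC sequence of other chromosomes at 7 bases, among them A33C in the anticodon. Other copies away from X differed from these at further bases. Each of the 12 X copies differed from each of the 11 others at the same 2 bases, G25A and C59T, written as the base elsewhere, the position and the base on X. The surroundings also differed. Of the 172 nt that span a copy and 50 nt on each side, the longest stretch repeated exactly somewhere else in the genome was at least 100 nt for 8 of the 12 X copies and for 0 of the 11 others, with medians of 159 and 72 nt. Reads had to map with a quality of at least 30 to be counted, and the part of this step in the low values of repeated loci was not tested.

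In wild-type brain the 31 alanine loci held 7.47% ± 0.0817 of all tRNA locus reads (SD, n = 5), and in wild-type liver 5.48% ± 0.311 (SD, n = 6). The AGC loci took most of these reads in both tissues. In brain, AGC, CGC and TGC loci held 71.0% ± 0.902, 17.7% ± 0.499 and 11.3% ± 0.601 of the alanine reads (n = 5). In liver they held 81.3% ± 2.04, 14.3% ± 2.27 and 4.41% ± 0.575 (n = 6). No wild-type library of one tissue reached the range of the other for AGC (70.1% to 72.5% in brain, 77.8% to 83.6% in liver) or TGC (10.7% to 12.1% and 3.29% to 5.46%), while the CGC ranges overlapped (16.9% to 18.1% and 10.9% to 17.5%), over 5 brain and 7 liver libraries. The reads were also concentrated in fewer loci in liver. The 5 highest alanine loci held 47.2% of the summed alanine level in brain and 73.2% in liver.

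Levels of single loci are given as reads per 10000 reads over all tRNA loci of the library, for windows of nearly equal length, and an average locus had 24.9. tRNA-Ala-AGC-4-2 had the highest mean of the alanine loci in both tissues, at 98.6 ± 2.05 in brain and 97.7 ± 14.8 in liver, where the batch 1 and 2 livers held 101 to 120 and the batch 3 livers 82.9 to 90.0. tRNA-Ala-CGC-2-1 was the highest CGC locus in both, at 74.4 ± 2.99 in brain and 65.6 ± 5.69 in liver. Next in brain came tRNA-Ala-AGC-7-1 at 64.6 ± 7.23 and tRNA-Ala-AGC-2-2 at 58.5 ± 2.86, whose ranges overlapped. In liver tRNA-Ala-AGC-4-2 was followed by tRNA-Ala-AGC-2-1 at 91.1 ± 10.0 and tRNA-Ala-AGC-2-2 at 77.4 ± 9.53, and the ranges of these 3 loci overlapped. In the batch 3 livers alone the median of AGC-2-1 was above that of AGC-4-2, at 95.7 against 83.1. tRNA-Ala-AGC-6-1 came next in liver, before tRNA-Ala-CGC-2-1. The TGC loci were lower. tRNA-Ala-TGC-2-1 and tRNA-Ala-TGC-1-1 led them in brain at 31.8 ± 2.33 and 29.9 ± 0.654, with overlapping ranges, and stood at 8.98 ± 4.95 and 10.8 ± 3.33 in liver.

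**Figure D1:**
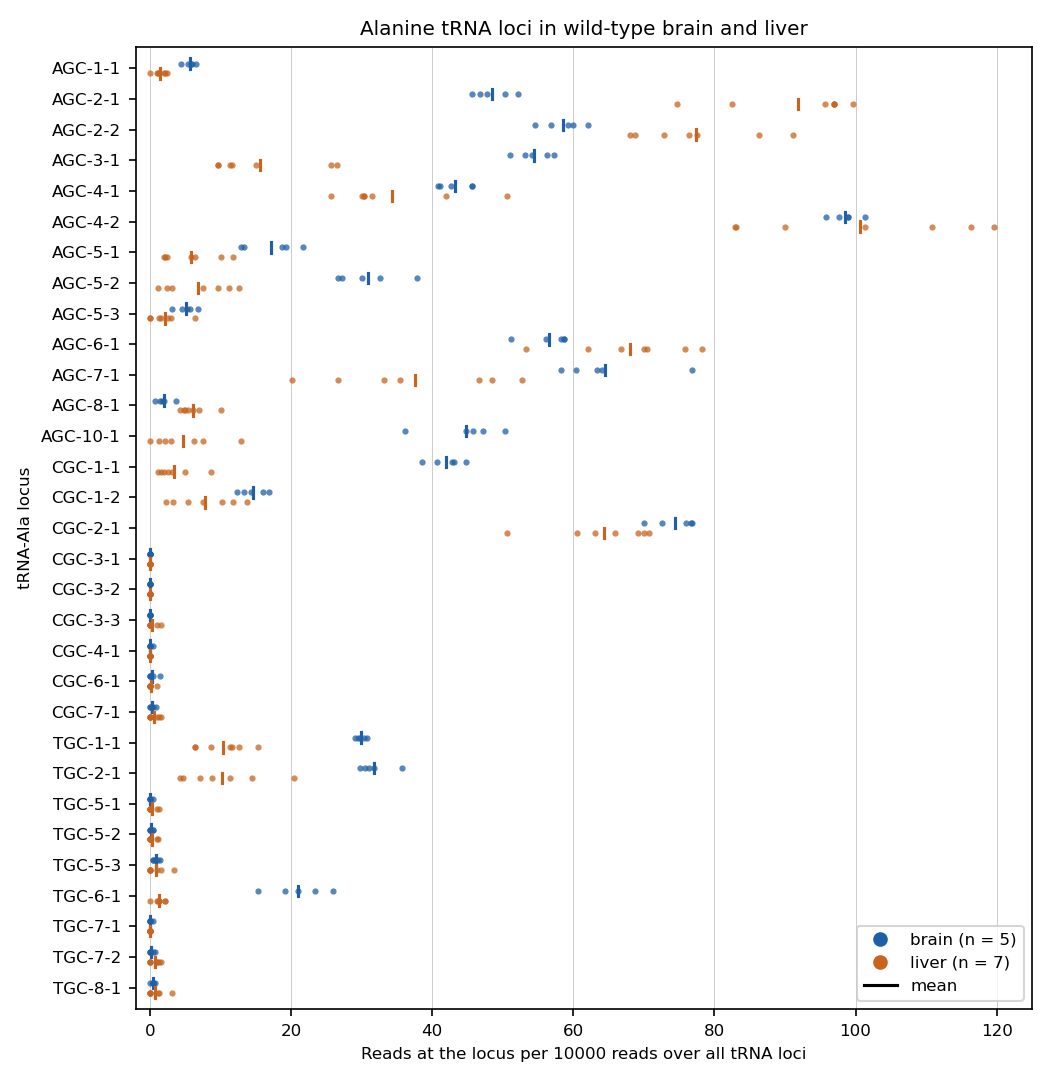
Reads per 10000 reads over all tRNA loci at each alanine tRNA locus in the wild-type brain and liver libraries, grouped by anticodon. Each point is 1 library; tRNA-Ala-AGC-4-2 lies between 95.8 and 101 in the brains and between 82.9 and 120 in the livers, and 6 CGC and 6 TGC loci lie at or near 0.

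The other end of the order was made up of CGC and TGC loci. Of the 31 members, 12 stayed under 2 per 10000 on average in both wild-type tissues, namely tRNA-Ala-CGC-3-1, CGC-3-2, CGC-3-3, CGC-4-1, CGC-6-1 and CGC-7-1, and tRNA-Ala-TGC-5-1, TGC-5-2, TGC-5-3, TGC-7-1, TGC-7-2 and TGC-8-1. Together they had 160 reads over all 32 libraries, knockouts included, and no library had more than 6 reads at any of them. tRNA-Ala-TGC-5-3 had the most, 48 reads. tRNA-Ala-CGC-3-1 and tRNA-Ala-CGC-3-2 had no read in any of the 32 libraries, which allows a share of up to 0.0524 per 10000 for each (3 counts over 572764 reads, counting error only). No AGC locus was in this group, although tRNA-Ala-AGC-8-1 was at 1.97 ± 1.12 in brain and tRNA-Ala-AGC-1-1 at 1.62 ± 0.744 in liver.

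Peaks gave a second view of the same gene family. Each comparison had 1 list of consensus peaks on GRCm38.p6, called on pooled groups and merged over both groups, so a list holds no replicates and cannot separate wild type from knockout. RefSeq places 33 alanine tRNA genes on this build, under names that could not be matched to the read tables, so the 2 loci left out above could not be set aside. A peak overlapped (by at least 1 base) 20, 18 and 19 of them in the Phe11, Phe21 and Phe31 brain lists, and 17, 14 and 10 in the Phe11, Phe21 and labelled Phe31 liver lists. Over all 430 tRNA genes of the annotation the shares with a peak were 56.5%, 52.8%, 53.7%, 50.2%, 44.2% and 40.9% in the same order, beside 60.6%, 54.5%, 57.6%, 51.5%, 42.4% and 30.3% for alanine. The lists also shrank in that order, from 269579 to 101338 peaks with the 3 liver lists shortest, and the part of list length in these counts was not tested.

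No peak in any list overlapped 12 of the 33 genes, 6 with CGC and 6 with TGC, which are the numbers of loci per anticodon that had almost no reads. Of the 12, 11 lay on X, in a cluster of 12 alanine genes between positions 136357602 and 136590436 that is outside other RefSeq genes. The exception on X was n-TAtgc1 at chrX:136590365-136590436, with a peak in the 3 brain lists and in no liver list. The gene without a peak away from X was n-TAcgc3 at chr4:132125259-132125330, inside the opioid receptor gene Oprd1. AGC genes all had a peak in at least 1 list, and 7 of the 13 had one in all 6. On chromosome 13, which holds 12 alanine genes, 12, 10 and 11 had a peak in the brain lists and 9, 6 and 4 in the liver lists. n-TAagc8 at chr4:132516008-132516079 had a peak in 2 liver lists and in no brain list. 

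**Figure D2:**
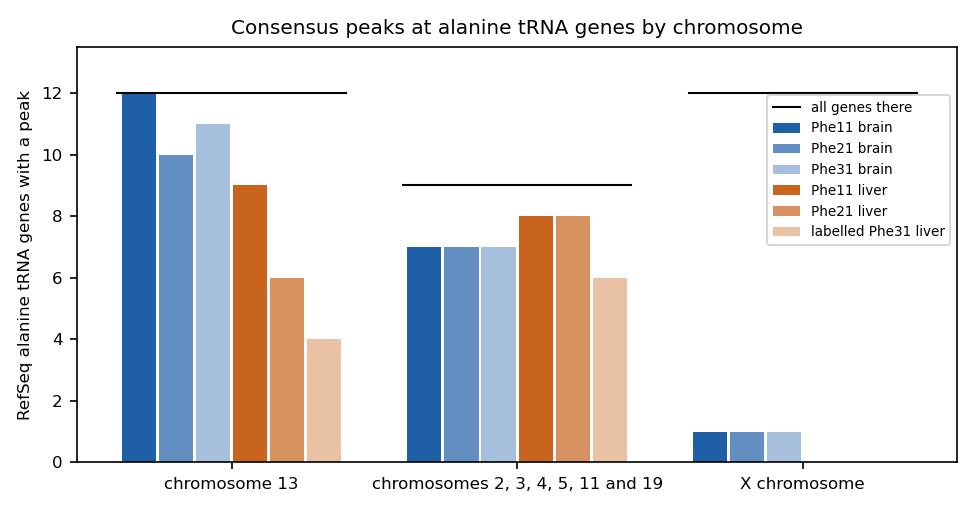
Number of RefSeq alanine tRNA genes with a consensus peak (y axis) in each of the 6 peak lists, for chromosome X, chromosome 13 and the other chromosomes. On X a peak overlapped 1 of 12 genes in each brain list and 0 of 12 in each liver list, and on chromosome 13 the counts were 12, 10 and 11 in the brain lists and 9, 6 and 4 in the liver lists.

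Brain and liver of wild-type mice differed at most alanine loci that had enough reads. Shares per 10000 were compared with limma on log2(share + 1) over all 262 loci with a mean share of at least 4, of which 65.3% passed an adjusted p of 0.05. Of the 31 members 17 were tested, and 15 passed, 4 higher in liver and 11 lower, where over all loci 27.9% were higher and 37.4% lower. The median log2 difference, liver minus brain, was -1.002 over these 17 loci and -0.15 over all 262. Among 43 tested loci of other amino acids whose anticodon also begins with A, 16 were higher in liver and 9 lower. With livers 1 and 22 averaged into 1 sample the same 15 members passed, in the same directions. In 12 of the 17 loci the 5 brain and 7 liver libraries did not overlap, which held for 41.6% of all 262 loci. The filter let in 3 of the 17 members through 1 tissue alone, tRNA-Ala-AGC-8-1 through liver and tRNA-Ala-CGC-1-1 and TGC-6-1 through brain. With livers 1 and 22 averaged, tRNA-Ala-AGC-10-1 also had a liver mean under 4, at 3.84. Among the loci left out were tRNA-Ala-AGC-1-1, at 4.48 to 6.57 in brain and 0 to 2.52 in liver, and AGC-5-3, at 3.13 to 6.89 and 0 to 6.43. Fewer cells that use a locus and less open chromatin per cell cannot be told apart in whole tissue. A log2 difference on this scale understates the change of loci near 0.

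tRNA-Ala-AGC-2-1, one of a pair of genes for the same AGC tRNA, rose from 50.3, 47.8, 46.8, 52.2 and 45.7 in the wild-type brains 1, 3, 2, 16 and 18 to between 74.7 and 99.6, median 96.9, in the 7 livers. Its log2 difference was +0.90 ± 0.0944 (SE, adjusted p = 2.9e-07), and every liver was above every brain. The other copy, tRNA-Ala-AGC-2-2, rose less, by 0.39 ± 0.0949 on the log2 scale (adjusted p = 0.0018). tRNA-Ala-AGC-8-1 was low in both tissues, from 0.749 to 3.77 in brain and from 4.29 to 10.1 in liver, with a log2 difference of +1.30 ± 0.309 (adjusted p = 0.0014), and it reached the filter only through the livers. tRNA-Ala-AGC-6-1 was 56.6 ± 3.19 in brain and 69.2 ± 6.95 in liver (log2 difference +0.25 ± 0.103, adjusted p = 0.039), with overlapping libraries.

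Among the 17 tested loci, the 3 largest falls were found in 1 locus of each anticodon. The CGC and TGC loci of these 3 reached the filter of 4 through brain alone, with means of 3.46 and 1.29 over the 7 livers. A locus let in this way could show only a fall, so the spread over the anticodons rests partly on the filter. The AGC locus had a liver mean of 4.755. tRNA-Ala-CGC-1-1 was at 44.9, 42.8, 38.6, 43.1 and 40.7 in brains 1, 3, 2, 16 and 18 and between 1.17 and 8.61, median 2.53, in the livers, a log2 difference of -3.44 ± 0.307 (adjusted p = 4.4e-08). tRNA-Ala-TGC-6-1 was at 23.5, 19.2, 15.4, 20.9 and 25.97 in the same brains and between 0 and 2.15 in the livers, from 8 reads in all, with a log2 difference of -3.32 ± 0.305 (adjusted p = 6.3e-08). tRNA-Ala-AGC-10-1 was at 50.3, 45.8, 47.2, 36.1 and 44.8 in the brains and between 0 and 12.9 in the livers, with a log2 difference of -3.42 ± 0.471 (adjusted p = 8.2e-06). For each of these loci the lowest brain lay above the highest liver.

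Further falls were seen in 6 loci without overlap. The log2 difference was -2.28 at tRNA-Ala-AGC-5-2, -1.84 at tRNA-Ala-AGC-3-1, -1.71 at tRNA-Ala-TGC-2-1, -1.60 at tRNA-Ala-AGC-5-1, -1.499 at tRNA-Ala-TGC-1-1 and -0.82 at tRNA-Ala-AGC-7-1, with adjusted p-values between 2.9e-06 and 0.0013. All 3 TGC loci that were tested were thus lower in liver, among them tRNA-Ala-TGC-6-1, which the filter let in through brain alone. tRNA-Ala-CGC-1-2 fell by 1.002 ± 0.333 (adjusted p = 0.0146) with overlapping libraries. tRNA-Ala-AGC-4-1 was 43.2 ± 2.38 in brain and 32.4 ± 7.13 in liver (log2 difference -0.35 ± 0.149, adjusted p = 0.0453), and it lost the call without any 1 of the 5 brains or of livers 3, 24, a, b and c, with adjusted p-values up to 0.0936. tRNA-Ala-AGC-6-1 above lost its call without any 1 brain or without livers 1, 24, a, b or c, with adjusted p-values up to 0.103. The 2 tested members that did not pass were the highest AGC and CGC loci, tRNA-Ala-AGC-4-2 (log2 difference +0.01 ± 0.101, adjusted p = 0.899, over batch 3 livers below the brains and other livers mostly above them) and tRNA-Ala-CGC-2-1 (-0.21 ± 0.0964, adjusted p = 0.0584). Brain and liver libraries of batch 1 gave 13 calls at members, and 153 of 269 loci over all. Leaving out the batch 3 livers gave 15 at members, and 198 of 268 loci over all.

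**Figure D3:**
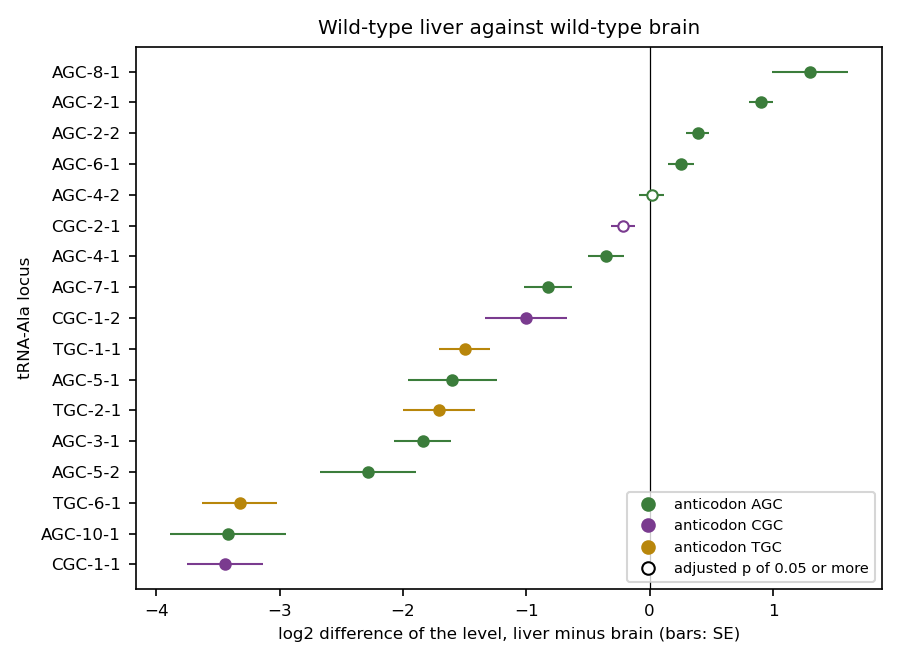
Difference in log2(share per 10000 + 1), wild-type liver minus wild-type brain, for the 17 alanine loci tested, with bars of 1 SE. Loci that passed the test run from tRNA-Ala-CGC-1-1 at -3.44 to tRNA-Ala-AGC-8-1 at +1.30, and tRNA-Ala-AGC-4-2 lies at +0.01.

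Copies that encode the same tRNA did not all keep their ratio between the tissues. The log2 ratio between copies was compared for 6 pairs of copies by an exact two-sided permutation test over 5 brains and 6 livers, which can give no p below 0.0043, and the pairs were chosen after their values had been seen. For tRNA-Ala-CGC-1-1 over CGC-1-2 the log2 ratio was 1.47 ± 0.232 in brain and -1.08 ± 0.757 in liver, so that the higher copy in brain was on average the lower in liver (exact permutation p = 0.0043, the smallest it can give, adjusted p = 0.013). The highest liver ratio was 0.204, with CGC-1-1 still above CGC-1-2, and the liver ratios rest on 21 and 47 reads over 7 libraries. For tRNA-Ala-AGC-2-1 over AGC-2-2 it was -0.27 ± 0.0663 in brain and 0.23 ± 0.299 in liver (exact permutation p = 0.013, adjusted p = 0.026). For tRNA-Ala-AGC-4-1 over AGC-4-2 it was -1.17 ± 0.104 and -1.58 ± 0.278 (exact permutation p = 0.0043, adjusted p = 0.013), the same copy being higher in both tissues. For tRNA-Ala-AGC-5-2 over AGC-5-3 it was 2.401 ± 0.438 and 1.15 ± 1.15 (exact permutation p = 0.026, adjusted p = 0.039), from 40 and 13 liver reads. The remaining pairs, AGC-5-1 over AGC-5-2 and AGC-5-1 over AGC-5-3, had liver minus brain differences of 0.66 and -0.59 with adjusted p-values of 0.348 and 0.463 from the exact permutation test. Without the 3 batch 3 livers the 6 differences kept their sign, 3 livers could not give an exact p under 0.036, and no adjusted p was below 0.107. The difference of AGC-5-2 over AGC-5-3 then shrank from -1.25 to -0.42 (exact permutation p = 0.214), and that of AGC-5-1 over AGC-5-2 from 0.66 to 0.083.

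**Figure D4:**
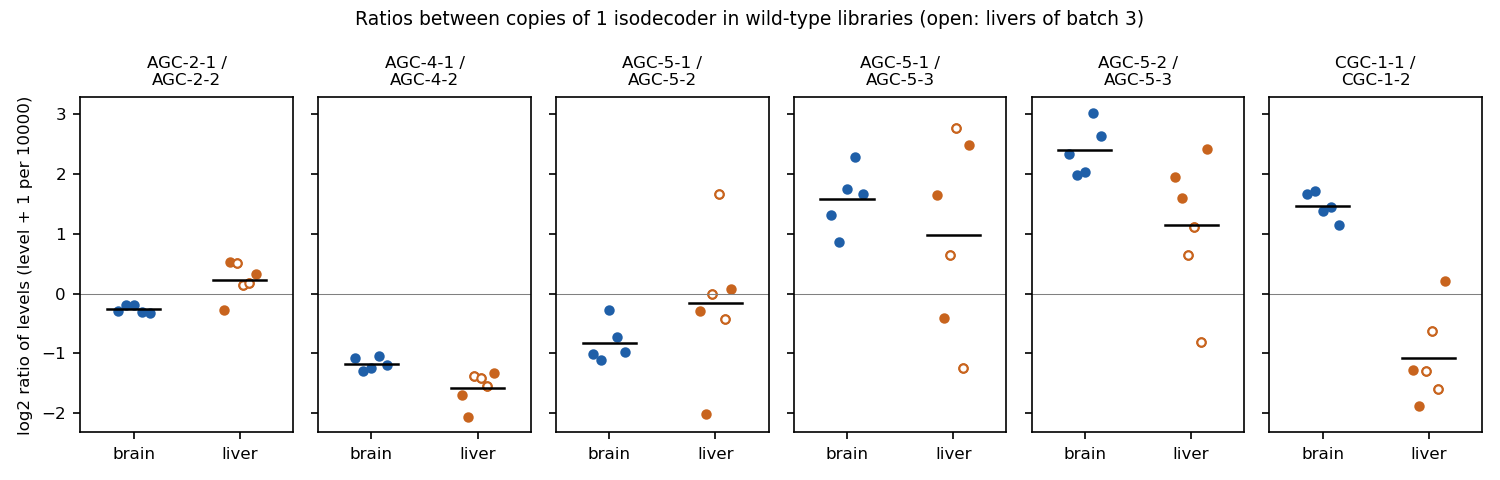
Log2 ratio of the reads of copies that encode the same alanine tRNA in each wild-type brain (n = 5) and liver (n = 6, livers 1 and 22 averaged), with the mean of each group. For tRNA-Ala-CGC-1-1 over CGC-1-2 the brains lie between 1.15 and 1.72 and the livers between -1.88 and 0.204, with no overlap.

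Knockout and wild-type libraries were compared in each of the 6 tables on log2(normalised read count + 1), over loci with a mean of at least 10, to ask whether loss of a phenylalanine tRNA gene went with changes at other tRNA genes. The 3 brain comparisons share wild-type libraries, as do the Phe11 and Phe21 liver comparisons, so these are not independent of each other, while the labelled Phe31 liver comparison has its own wild types. In total 18, 17 and 18 members were tested in Phe11, Phe21 and Phe31 brain, and 10, 9 and 7 in Phe11, Phe21 and labelled Phe31 liver.

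Phe11 brain was the comparison with the most calls at alanine loci. Of 263 loci 28.1% passed, 14.8% higher in Phe11 and 13.3% lower, and 8 of the 18 tested members passed, 3 higher and 5 lower. The 3 that rose were AGC loci, and the 5 that fell were 2 AGC, 1 CGC and 2 TGC loci. The median log2 change was -0.08 over the members and -0.01 over all loci. Of 45 loci of other amino acids with an anticodon beginning with A, 12 rose and 5 fell. The split over all loci, 39 higher and 35 lower, became 48 and 27 when every library was scaled to the same total, while the members stayed at 3 and 5.

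tRNA-Ala-AGC-5-2 had normalised read counts of 70.9, 78.0, 69.9 and 84.6 in wild-type brains 1, 3, 16 and 18 and 100.2, 109, 123 and 118 in Phe11 brains 5, 6, 13 and 14, with no overlap (log2 change +0.56 ± 0.0980, adjusted p = 7.0e-05). tRNA-Ala-TGC-6-1 had 61.1, 49.9, 54.8 and 67.2 in the wild-type brains and 39.9, 39.7, 38.2 and 37.7 in the Phe11 brains, again with no overlap (log2 change -0.56 ± 0.128, adjusted p = 0.0013). These were also the 2 members that passed with DESeq2. Both kept their call when any 1 library was left out, with log2 changes between 0.49 and 0.61 for AGC-5-2 and between -0.64 and -0.48 for TGC-6-1.

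Smaller shifts were found at the highest loci. tRNA-Ala-AGC-4-2 had 254, 263, 259 and 248 in the wild-type brains and 231, 213, 207 and 231 in the Phe11 brains (log2 change -0.22 ± 0.0565, adjusted p = 0.0044). tRNA-Ala-CGC-2-1 had 199.6, 199, 199 and 188 in the wild-type brains and 172, 178, 164 and 159 in the Phe11 brains (log2 change -0.22 ± 0.0649, adjusted p = 0.0097). Wild type and Phe11 did not overlap at either locus. tRNA-Ala-AGC-7-1 had 167, 199, 158 and 151 against 140.0, 155, 139 and 118, which overlapped (log2 change -0.29 ± 0.0798, adjusted p = 0.0072).

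Calls at 3 members were less stable, each lost without any 1 of several libraries of both groups. Wild type and Phe11 did not overlap at tRNA-Ala-AGC-1-1 and TGC-2-1, and they overlapped at AGC-5-1. tRNA-Ala-AGC-1-1 rose from 14.6 ± 2.35 to 22.9 ± 3.98 (log2 change +0.62 ± 0.230, adjusted p = 0.044), and missed the threshold without wild-type brain 1 or 18 or Phe11 brain 6, 13 or 14, with adjusted p-values up to 0.176. tRNA-Ala-AGC-5-1 rose from a mean of 43.8 to 54.8 (log2 change +0.35 ± 0.128, adjusted p = 0.041), and missed it without wild-type brain 1, 3 or 18 or Phe11 brain 5, 6 or 13, with adjusted p-values up to 0.136. tRNA-Ala-TGC-2-1 fell from 83.1 to 66.0 (log2 change -0.33 ± 0.110, adjusted p = 0.023), and missed it without wild-type brain 16 or 18 or Phe11 brain 6, 13 or 14, with adjusted p-values up to 0.104. The count of members called fell from 8 to 5 without wild-type brain 18 and to 5 without Phe11 brain 13, where 56 of 265 and 58 of 263 loci were called over all. It was 0 in batch 1 alone and 5 in batch 2 alone, each with 2 libraries a group, where 6 of 261 and 59 of 264 loci were called over all.

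In Phe21 brain none of the 17 tested members passed, and of all 253 loci 0.0% passed with limma. At an unadjusted p under 0.05 there were 4 members and 43 loci, and edgeR and DESeq2 also called 0. Among the tested members the largest fall was at tRNA-Ala-TGC-1-1, with 75.9, 78.8 and 76.0 in wild-type brains 1, 2 and 3 and 56.9, 48.9 and 55.1 in Phe21 brains 7, 8 and 9, without overlap (log2 change -0.51 ± 0.124, adjusted p = 0.0619). It passed without Phe21 brain 7 (adjusted p = 0.0446) and with TMM scaling (adjusted p = 0.0454). tRNA-Ala-CGC-1-1 had a log2 change of -0.33 ± 0.117 (adjusted p = 0.159). The largest positive changes among them were +0.11 at tRNA-Ala-AGC-7-1 and +0.07 at tRNA-Ala-TGC-2-1. tRNA-Ala-AGC-5-3, just under the mean of 10 and so not tested, had 11.8, 13.45 and 17.7 in the wild-type brains and 2.75, 5.43 and 7.997 in the Phe21 brains, without overlap. With no filter its log2 change was -1.33 ± 0.409 (adjusted p = 0.167). It was singled out after its values were seen. The median was -0.10 over the members and 0.01 over all loci.

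In Phe31 brain 0 of 18 tested members passed, where 0.775% of 258 loci did. At an unadjusted p under 0.05 there were 1 member and 16 of the 258 loci. That member was tRNA-Ala-CGC-1-1, with 110, 94.5 and 105 in wild-type brains 1, 2 and 3 and 65.2, 87.5 and 96.5 in Phe31 brains 10, 11 and 12, where the groups overlapped (log2 change -0.33 ± 0.137, adjusted p = 0.635). edgeR and DESeq2 called 0 members. tRNA-Ala-AGC-5-3, which reached the mean of 10 only through the wild types, had a change of -0.82 ± 0.490 (adjusted p = 0.757), from 14.2, 8.46 and 2.84 in the Phe31 brains. On the positive side stood tRNA-Ala-AGC-5-2 at +0.26 and tRNA-Ala-AGC-5-1 at +0.13, the second of which became -0.02 without Phe31 brain 10. 

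Liver tables held fewer reads, and fewer alanine loci reached the mean of 10. In the same livers tRNA-Arg-TCT-4-1, the nervous system locus, held 6.16 to 9.69 per 10000 in wild types of batches 1 and 2, 1.03 to 3.204 in Phe11 and 0.538 to 1.77 in Phe21, and 2.33 to 5.04 in wild types and 2.12 to 14.4 in libraries labelled Phe31 of batch 3. The 4 alanine loci lowest in liver relative to brain (CGC-1-1, AGC-10-1, TGC-6-1 and AGC-5-2) summed to 17.5 to 25.8 in wild types of batches 1 and 2, 14.3 to 25.7 in Phe11, 4.31 to 6.21 in Phe21, 3.50 to 10.7 in batch 3 wild types and 12.2 to 12.7 in the libraries labelled Phe31. The part of these differences between livers in the results below was not tested. 

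In Phe11 liver 0 of 10 tested members passed, where 12.1% of 207 loci did with limma. At an unadjusted p under 0.05 there were 2 members and 50 of the 207 loci. edgeR and DESeq2 called 0 members, and 23 and 11 loci over all. With wild-type livers 1 and 22 averaged into 1 sample, 0 members passed and 0 had an unadjusted p under 0.05, where 22 and 42 of 209 loci did. tRNA-Ala-AGC-3-1 had 15.3, 27.03, 9.66 and 25.7 in wild-type livers 1, 3, 22 and 24 and 18.4, 29.1, 32.8 and 30.1 in Phe11 livers 4, 6, 20 and 21, which overlapped (log2 change +0.56 ± 0.226, adjusted p = 0.0907). It passed without wild-type liver 3 (log2 change +0.79, adjusted p = 0.0081) and without wild-type liver 24 (+0.75, adjusted p = 0.0209), where livers 1 and 22, the lowest for this locus, still counted as separate. Both passes rest on 2 distinct wild-type samples, and with livers 1 and 22 averaged and no library left out the change was +0.37 ± 0.212 (adjusted p = 0.346). tRNA-Ala-AGC-4-2 had a log2 change of -0.23 ± 0.110 (adjusted p = 0.172), tRNA-Ala-AGC-2-2 of -0.13 and tRNA-Ala-TGC-1-1 of +0.28. The test left out tRNA-Ala-TGC-2-1, with 20.8, 11.6, 14.5 and 7.198 in the wild-type livers and 3.07, 3.12, 3.54 and 2.06 in the Phe11 livers. These groups did not overlap, and the locus passed when no filter was used, as 7.45% of 376 loci did (log2 change -1.81 ± 0.398, adjusted p = 0.0017). That fit counted livers 1 and 22, the highest for this locus, as separate samples, and no fit without a filter averaged them. The locus was singled out after its values were seen.

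In Phe21 liver 1 of 9 tested members passed, where 13.4% of 201 loci did. tRNA-Ala-AGC-3-1 had 16.7, 29.4 and 28.5 in wild-type livers 1, 3 and 24 and 12.6, 9.43 and 10.5 in Phe21 livers 7, 8 and 9, without overlap (log2 change -1.09 ± 0.318, adjusted p = 0.0079). The call was lost without wild-type liver 3 (adjusted p = 0.103) or 24 (adjusted p = 0.132). Per 10000 reads this locus held 8.42 to 11.3 in Phe21 livers, 9.65 to 11.7 in the 3 wild types of batch 3 and 9.699 in wild-type liver 22, none of which were part of this comparison. tRNA-Ala-CGC-2-1 had 56.1, 72.8 and 67.2 against 53.0, 50.3 and 42.9, also without overlap (log2 change -0.41 ± 0.153, adjusted p = 0.0528), and passed without wild-type liver 1 (adjusted p = 0.0111). The largest positive changes among the 9 tested loci were +0.57 ± 0.319 at tRNA-Ala-TGC-2-1 (adjusted p = 0.215; 0.0323 without wild-type liver 1) and +0.10 at tRNA-Ala-AGC-6-1. Without a filter 4 of 27 members passed, all lower in Phe21, where 11.4% of 377 loci passed (18 higher and 25 lower), and 3 of the 4 had been under the mean of 10. Of these, tRNA-Ala-AGC-5-2 had 8.35, 14 and 12.5 in the wild-type livers and 1.204, 0.786 and 0 in the Phe21 livers, and tRNA-Ala-AGC-5-1 had 13.1, 11.2 and 2.28 against 1.204, 0.786 and 1.05. The third, tRNA-Ala-TGC-1-1, had 9.55, 14 and 17.1 against 8.43, 3.14 and 4.19. No group overlapped with the other at these loci, and the share of all loci without overlap was not computed here. Per 10000 reads, AGC-5-2 held 0 to 1.08 in Phe21 livers, 1.17 to 3.22 in batch 3 wild types and 9.70 in wild-type liver 22. In the same order AGC-5-1 held 0.702 to 1.08, 2.14 to 5.84 and 6.47, and TGC-1-1 held 2.81 to 7.54, 6.43 to 11.7 and 6.47.

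In the libraries labelled Phe31 of liver 1 of 7 tested members passed, where 10.7% of 178 loci did. tRNA-Ala-AGC-2-1 had 63.4, 64.1 and 54.5 in wild-type livers a, b and c and 40.5, 45.4 and 42.3 in the libraries labelled Phe31, without overlap (log2 change -0.49 ± 0.166, adjusted p = 0.0352). Its share, 64.6 to 69.9 per 10000, was also below that of all 7 wild-type livers, 74.7 to 99.6. The call was lost without wild-type liver a, b or c or library a or c labelled Phe31, with adjusted p-values up to 0.219. tRNA-Ala-AGC-6-1 had 46.1, 50.8 and 51.7 against 31.5, 41.2 and 35.7, without overlap (log2 change -0.45 ± 0.184, adjusted p = 0.103; 0.0169 with TMM scaling, which moved the median of all loci from -0.01 to -0.13). Among the 7 tested loci the largest positive changes were +0.24 at tRNA-Ala-CGC-2-1 and +0.16 at tRNA-Ala-AGC-4-2, with adjusted p-values of 0.456 and 0.633. Since the libraries had lost tRNA-Phe-GAA-1-1 and not GAA-3-1, these changes cannot be assigned to the Phe31 deletion.

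**Figure D5:**
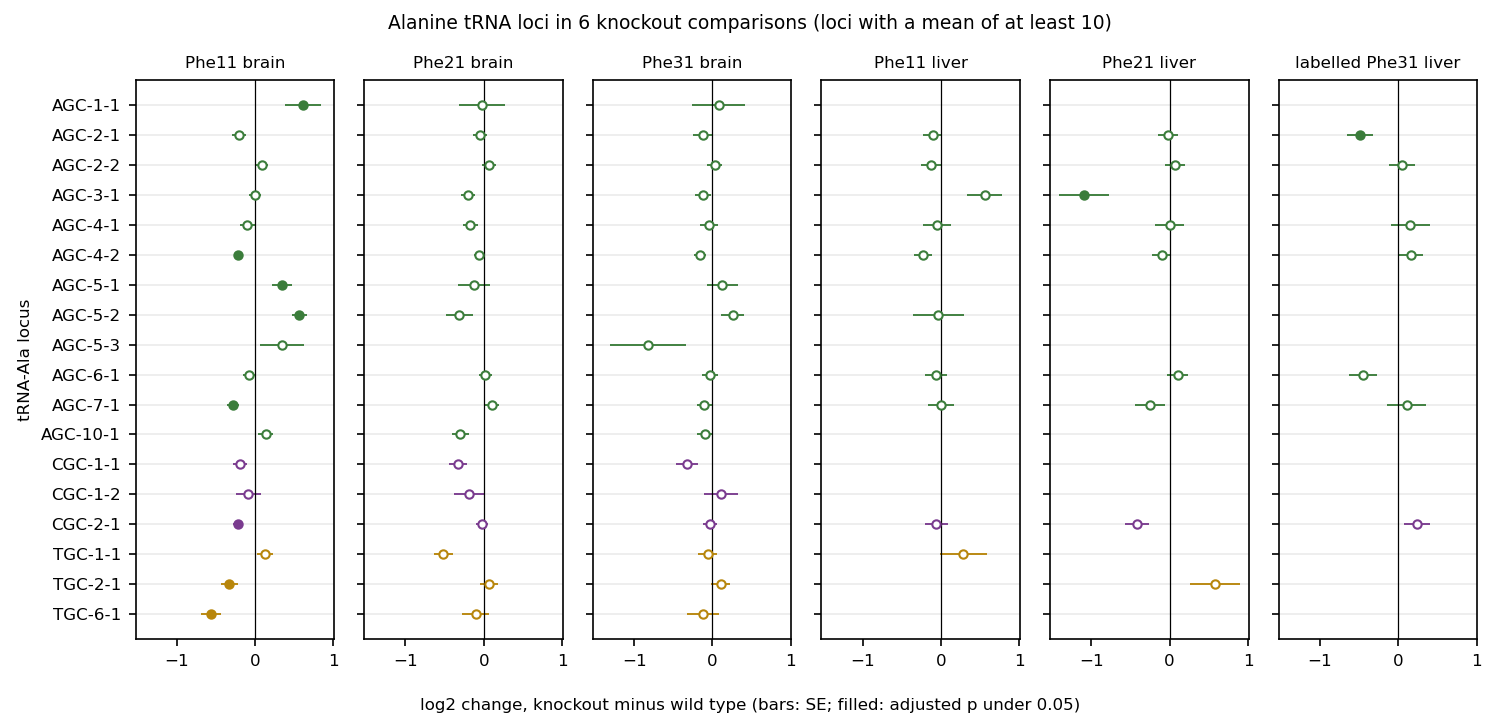
Log2 change in normalised read count, knockout minus wild type, of the tested alanine loci in the 6 comparisons, with calls at an adjusted p of 0.05 marked. In Phe11 brain 3 loci were called higher and 5 lower, in Phe21 liver tRNA-Ala-AGC-3-1 was called lower (-1.09), and in the liver libraries labelled Phe31 tRNA-Ala-AGC-2-1 was called lower (-0.49).

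Whether a deletion went with a different change in liver than in brain was tested as an interaction in the 2 lines with both tissues and matching labels. For Phe11 7.84% of 204 loci passed, and 0 of 10 members did. At an unadjusted p under 0.05 there were 1 member and 52 loci, and edgeR called 0 members and 19 loci. That member was tRNA-Ala-AGC-5-2, higher in Phe11 brain, with a liver minus brain difference of -0.60 ± 0.282 (adjusted p = 0.179), and it passed without Phe11 liver 6 (-0.84, adjusted p = 0.0379). For Phe21 4.06% of 197 loci passed, and 1 of 9 members did. This was tRNA-Ala-AGC-3-1, whose log2 change was 0.89 ± 0.262 lower in liver than in brain (adjusted p = 0.0435). In Phe21 brain itself the locus had 136, 147 and 139 in the wild types and 123, 120 and 123 in Phe21 (log2 change -0.20 ± 0.0852, adjusted p = 0.238). The interaction was lost without any 1 of the 6 brain libraries, wild-type liver 3 or 24, or Phe21 liver 8 or 9, with adjusted p-values up to 0.115. Without wild-type liver 1 tRNA-Ala-CGC-2-1 passed as well (-0.49 ± 0.149, adjusted p = 0.0487).

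The alanine loci were also summed in each group, with no test of the sums. In brain it was 7.47% ± 0.0817 of all locus reads in wild type (n = 5), 7.32% ± 0.105 in Phe11 (n = 4), 6.81% ± 0.324 in Phe21 (n = 3) and 7.18% ± 0.311 in Phe31 (n = 3). In liver it was 5.48% ± 0.311 in wild type (n = 6), 5.47% ± 0.146 in Phe11 (n = 4), 4.95% ± 0.189 in Phe21 (n = 3) and 5.41% ± 0.480 in the libraries labelled Phe31 (n = 3). Phe21 had the lowest mean in both tissues, and its brain libraries (6.56% to 7.17%) lay below all wild-type brains (7.34% to 7.56%). AGC loci held 70.1% to 74.2% of the alanine reads in every brain library and 74.9% to 85.9% in every liver library, and these ranges did not overlap.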

How the data were processed

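Nucleosome-free ATAC-Seq reads at tRNA loci were measured in 15 brain and 17 liver libraries. Per the study's methods, the authors used Trim Galore 0.6.4 and cutadapt 1.18 for trimming, and Bowtie2 2.4.1 for alignment to GRCm38.p6 (at most 20 alignments reported a read). Duplicates were removed with Picard 2.23.8, and SAMtools 1.10 kept reads with a mapping quality of at least 30 and deepTools 3.5.0 fragments up to 175 nt. featureCounts 2.0.0 counted reads over GtRNAdb high-confidence tRNA genes extended by 50 nt at both ends. The signal values deposited by the authors are these counts divided by 1 DESeq2 1.30.0 size factor per library. 6 tables each hold 1 comparison and were normalised separately. Multiplying back gave whole reads for 100% of 16040 values (largest deviation 2.2e-12), and edgeR on those reads was run as an alternative. It called 66, 0, 2, 23, 34 and 14 loci in the Phe11, Phe21 and Phe31 brain and the Phe11, Phe21 and labelled Phe31 liver tables. The consensus peaks deposited by the authors (Genrich 0.6, merged with DiffBind 3.0.8) were used for their positions. The authors' tables of fold changes, p-values and s-values for loci and peaks were not used.

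Loci were compared with limma 3.58.1 with a mean trend in R 4.3.3, two-sided, on log2(normalised count + 1) for loci with a mean of at least 10, with batch as a term in the Phe11 comparisons. Brain and liver were compared on log2(reads per 10000 over all loci + 1) for loci with a mean of at least 4. P-values were adjusted by Benjamini and Hochberg over all loci of a comparison, with a threshold of 0.05. edgeR 4.0.16, DESeq2 1.42.0, other pseudocounts, filters and scalings, single batches and leaving out each library were alternatives. The steps were tested on simulated data. Depth was 4719 to 35565 reads a library. Per the methods, mice came from several litters and wild types were matched to mutants by litter. The litter and day of each library are not given in the sources used here, and p-values measure the spread between these libraries.

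Members, lists and tests were chosen with earlier results of these data known, including results that named the 2 loci left out. The members named are those that passed in any comparison, the 3 highest per anticodon and tissue, the 2 largest positive and negative changes per knockout comparison, and loci under 2 per 10000. tRNA copies were found in GRCm39 with blastn 2.17.0 and samtools 1.23.1; gene positions and promoters came from RefSeq on GRCm38.p6. 1 of the 33 RefSeq alanine genes lay in a promoter window of the RefSeq table and served as the query.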

Additional observations from a re-analysis of the deposited data

Results flagged for a closer look

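Within groups of 4 to 6 samples, the highest or lowest share per 10000 reads stood apart from the others by Dixon's test in 7 of 76 groups over 19 members, where chance gives about 1 in 20. tRNA-Ala-AGC-4-1 was 46.3 in the mean of wild-type livers 1 and 22, against 25.7 to 31.5 in the other wild-type livers. tRNA-Ala-AGC-5-1 was 7.999 in Phe11 liver 21, against 5.14 to 5.37. tRNA-Ala-AGC-5-3 was 5.07 in Phe11 brain 6, against 6.98 to 7.30, and 0.894 in Phe11 liver 20, against 2.95 to 3.204. tRNA-Ala-CGC-1-1 was 37.5 in Phe11 brain 14, against 38.7 to 38.8, and 10.7 in Phe11 liver 4, against 3.09 to 4.21. tRNA-Ala-TGC-6-1 was 2.14 in wild-type liver c, against 1.03 to 1.27 with livers 1 and 22 averaged. Liver 1 alone held 2.15 and liver 22 held 0, so liver c stood apart only through that averaging. 

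The change of tRNA-Ala-AGC-3-1 in Phe21 mice differed between the tissues by -0.89 on the log2 scale, liver minus brain.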

How the results depend on the processing

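Over 50 values of named members and their alternatives, 730 of 838 kept direction and side of the threshold, 96 lost a call, 10 gained one and 2 changed sign, tRNA-Ala-AGC-5-1 in Phe31 brain (-0.02085 without Phe31 brain 10, and -0.02085 to 0.294 over the left-out libraries) and tRNA-Ala-AGC-6-1 in Phe21 liver with edgeR (-0.0027). The causes were not tested. The tissue comparison gave 11 to 16 calls, the 11 from a filter that tested 13 members, and 13 to 15 when each library was left out. Members called in Phe11 brain numbered 5 without the trend, 2 with DESeq2, 0 in batch 1 and 5 in batch 2, and 5 to 7 when each library was left out. Over all loci the first 4 of these settings called 57, 35, 6 and 59. Phe21 brain gave 1 call with TMM and 0 to 1 with a library left out; Phe31 brain 0 throughout. Phe11 liver gave 1 call with no filter and 0 to 1 with a library left out. Phe21 liver gave 2 with a pseudocount of 10, 2 with equal library totals, 2 with edgeR, 4 with no filter, 0 with a mean of at least 30 and 0 with DESeq2, which gave 2 members no adjusted p, and 0 to 3 with a library left out. The labelled Phe31 liver comparison gave 2 with TMM, 0 with no filter, with equal library totals, without the trend and with DESeq2, and 0 to 1 with a library left out. The interactions gave 0 to 1 for Phe11 and 0 to 2 for Phe21 with a library left out, and 0 for Phe21 with a pseudocount of 10. In liver 7 to 10 members reached the mean of 10.

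Whether a sample number shared by the tissues marks 1 mouse could not be decided from the reads. Correlations of deviations ran from -0.045 to 0.084, and 1 of 3 and 0 of 5 brains matched the liver of their own number best. With so few shared numbers, low correlations cannot show that the tissues came from different mice. With the replicate block the members called were 16 for the tissues, 0 for Phe11 and 1 for Phe21.

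The ratios of gene copies, tested without the batch 3 livers as an alternative added after seeing the data, kept their signs, no adjusted p passed the threshold, and the difference of AGC-5-2 over AGC-5-3 shrank from -1.25 to -0.42.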
